A study of Mus musculus with 6 samples.

Results

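The wild-type baseline of the study is the RNA of CD4+CD8+ double-positive thymocytes measured on 3 of the 6 arrays of the series, those whose labels put them in the wild-type group. The other 3 arrays hold RNA of Sox13 transgenic mice and were not used here. The wild-type cells came from C57BL/6 mice, female and 6 weeks old, that were littermates of the transgenic animals and received no treatment that the labels name. Thymocytes of at least 2 mice were pooled for a sort, and the sorted CD4+CD8+ cells were lysed in Trizol. Experiment 1 hybridised 1 wild-type sample to the Affymetrix Mu11K pair, an A and a B array with separate sets of probes. Experiment 2 hybridised 1 wild-type sample to the MG-U74Av2 array, called U74A here, and its label names antibodies to CD4 and CD8 for the sort. Each experiment therefore gave 1 pooled sample, and every value below is a level or a rank within an array with no replicate of the same array type.

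Double-positive thymocytes are the stage between early CD4-CD8- precursors and mature CD4+ or CD8+ T cells. Cells arrive at this stage after signalling through the pre-T-cell receptor, divide, and then rearrange the T-cell receptor alpha locus with the RAG recombinase. A small share of them receives a survival signal through the assembled receptor and matures, and the rest die in the thymic cortex. The stage is known for CD4 and CD8 on the same cell, for high RAG and terminal transferase expression, and for low levels of interleukin-7 receptor.

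The deposited values were intensities, 1 for each probe set, which is a group of short oligonucleotides designed against a transcript. After control probe sets were removed, 6508 probe sets were used on Mu11K A, 6540 on Mu11K B and 12422 on U74A. Each array was scaled so that its 2% trimmed mean was 500, and values under a floor of 100 were set to 100. Above the floor lay 57.4% of the probe sets on Mu11K A, 51.4% on Mu11K B and 55.1% on U74A. The median scaled intensity was 164.4, 110.6 and 136.8 in the same order, and the 99th percentile was 7694, 10928 and 10029. Negative deposited intensities made up 17.3% of Mu11K A and 29.2% of Mu11K B, and U74A had none. After scaling, 95% of those negative values were smaller in size than 183.1 on Mu11K A and 436.1 on Mu11K B, so a Mu11K level under those values lies within the range that negative values span. The ratio of the 3' to the 5' control probe set was 1.32 on Mu11K B and 1.58 on U74A for Actb, and 0.870 and 0.792 for Gapdh.

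A gene was named from probe sets with 1 gene symbol. Its level was the mean of log2 scaled intensity over its probe sets, written here on the intensity scale, and its percentile was the mean percentile of those probe sets within their arrays. Probe sets at the floor tie, at percentile 21.3 on Mu11K A, 24.3 on Mu11K B and 22.5 on U74A. Probe sets bind with different strength, so a rank orders probe signals and not transcript numbers. The annotation named 6137 genes on Mu11K and 8251 on U74A, with 5877 on both. A gene with any probe set above 100 was counted above the floor, which held for 61.5% of named genes on Mu11K and 63.2% on U74A.

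The 5 marker genes of the stage were above the floor in both experiments. Cd4, the co-receptor for MHC class II, had a scaled intensity of 7876 on Mu11K (percentile 97.9) and 6496 on U74A (percentile 98.2). Cd8a, a chain of the MHC class I co-receptor, had 16859 on Mu11K and 17759 on U74A, at percentile 99.6 of both. Rag2, a subunit of the V(D)J recombinase, had 1871 on Mu11K (percentile 91.2) and 2008 on U74A (percentile 92.1). These 3 genes stood at nearly the same rank on different array types. Rag1, the catalytic partner of Rag2, had 10728 on Mu11K A at percentile 99.6, and its U74A probe sets disagreed. One of them gave 12724 (percentile 99.3) and the other 97.6, under the floor, so the gene's mean level on U74A was 1128 at percentile 60.9. Ptcra, the invariant chain of the pre-T-cell receptor, had 312.3 on Mu11K A (percentile 61.0) and 1503 on U74A (percentile 88.7). By gene means, 3 of the 5 markers were at or above the 90th percentile of both experiments, against 4.88% of the 5877 genes on both array types.

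**Figure D1:**
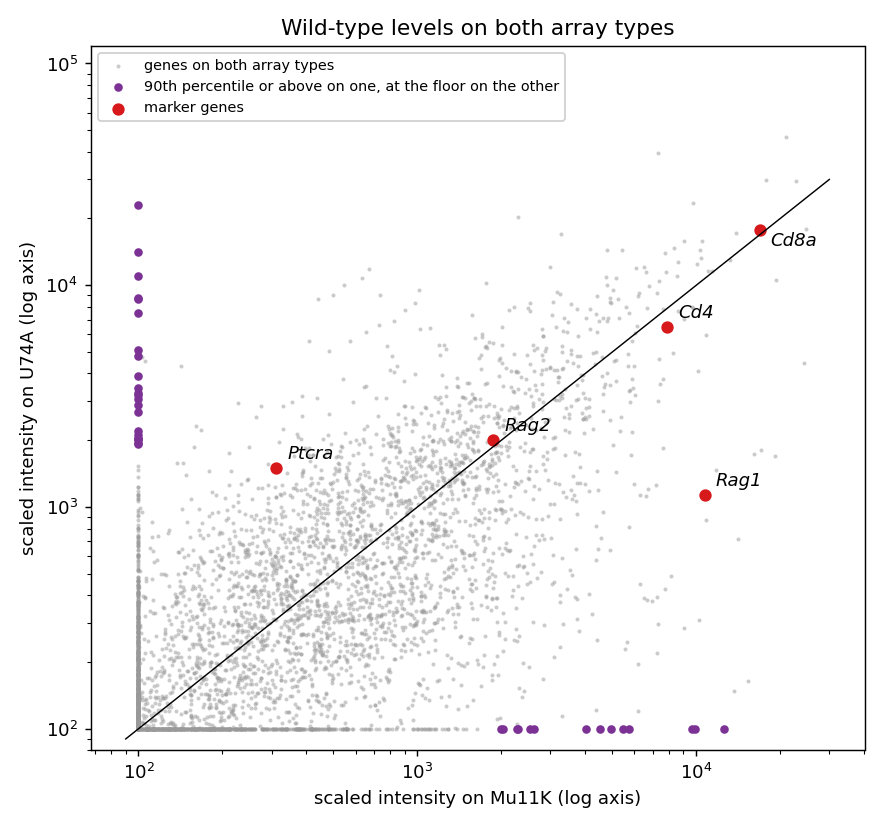
Each point is 1 of the 5877 genes on both array types, with its Mu11K level on the horizontal axis and its U74A level on the vertical axis, as scaled intensities on log axes, and the line marks equal levels. Cd4, Cd8a and Rag2 lie near the line, Rag1 lies below it and Ptcra above it, and the points along the axes at 100 are genes at the floor in 1 experiment.

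Promoter windows of the markers are shown beside those of a pair of highly ranked ubiquitous genes and of a liver gene because the windows differed in CpG count, a feature that the arrays do not measure. The sequences are the 250 bases before the RefSeq start (GRCm38.p6), read 5′ to 3′ in the direction of the gene, with every CpG in capitals. Among the markers, Cd8a is at chr6:71373177-71373426 on the plus strand, Rag1 at chr2:101649533-101649782 on the minus strand, Rag2 at chr2:101624462-101624711 on the plus strand and Ptcra at chr17:46763713-46763962 on the minus strand. The printed stretch held 0 CpG for Cd8a, 3 for Rag1, 3 for Rag2 and 1 for Ptcra.
Cd8a: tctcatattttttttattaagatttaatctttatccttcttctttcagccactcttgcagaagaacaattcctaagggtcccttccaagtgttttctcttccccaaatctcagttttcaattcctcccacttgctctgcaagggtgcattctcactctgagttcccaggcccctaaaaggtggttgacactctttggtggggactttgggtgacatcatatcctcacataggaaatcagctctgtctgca
Rag1: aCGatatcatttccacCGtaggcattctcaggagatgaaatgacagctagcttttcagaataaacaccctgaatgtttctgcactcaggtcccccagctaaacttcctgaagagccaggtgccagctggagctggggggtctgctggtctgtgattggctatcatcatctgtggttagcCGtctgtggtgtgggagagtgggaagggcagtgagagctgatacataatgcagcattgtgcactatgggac
Rag2: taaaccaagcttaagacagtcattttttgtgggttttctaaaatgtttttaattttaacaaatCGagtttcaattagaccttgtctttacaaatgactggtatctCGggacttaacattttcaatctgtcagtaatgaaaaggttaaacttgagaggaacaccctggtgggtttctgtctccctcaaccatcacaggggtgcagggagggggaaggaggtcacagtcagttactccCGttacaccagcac
Ptcra: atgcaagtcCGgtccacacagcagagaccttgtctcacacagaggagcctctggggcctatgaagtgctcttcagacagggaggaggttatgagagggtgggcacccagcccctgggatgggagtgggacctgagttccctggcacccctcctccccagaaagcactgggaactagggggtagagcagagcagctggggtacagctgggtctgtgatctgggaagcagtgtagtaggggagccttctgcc

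Rpl41, a ribosomal protein gene, is at chr10:128549169-128549418 on the minus strand, and Tpt1, a translationally controlled protein found in most cells, is at chr14:75845006-75845255 on the plus strand. Both were among the 3 genes with the highest rank in both experiments. Alb, which encodes the serum albumin made by liver, is at chr5:90460620-90460869 on the plus strand. The printed stretch held 12 CpG for Rpl41, 33 for Tpt1 and 2 for Alb.
Rpl41: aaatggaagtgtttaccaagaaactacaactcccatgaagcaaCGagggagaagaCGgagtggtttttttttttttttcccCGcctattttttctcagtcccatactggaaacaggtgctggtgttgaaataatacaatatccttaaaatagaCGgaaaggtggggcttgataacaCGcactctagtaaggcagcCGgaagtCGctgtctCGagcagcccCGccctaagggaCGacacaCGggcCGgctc
Tpt1: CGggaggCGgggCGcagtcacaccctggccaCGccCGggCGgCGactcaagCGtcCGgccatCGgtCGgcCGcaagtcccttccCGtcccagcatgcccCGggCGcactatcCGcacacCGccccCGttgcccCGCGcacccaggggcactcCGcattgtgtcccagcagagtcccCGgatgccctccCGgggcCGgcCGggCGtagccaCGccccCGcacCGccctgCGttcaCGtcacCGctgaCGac
Alb: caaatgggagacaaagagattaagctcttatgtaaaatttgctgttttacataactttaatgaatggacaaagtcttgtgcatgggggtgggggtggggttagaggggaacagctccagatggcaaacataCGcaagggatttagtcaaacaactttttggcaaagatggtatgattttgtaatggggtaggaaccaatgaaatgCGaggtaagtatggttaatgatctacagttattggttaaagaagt

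Genes that mark or act at the double-positive stage ranked far up on both array types. Of 32 such genes listed, 22 were measured on Mu11K and 21 of these were above the floor. On U74A 25 were measured and all 25 were above the floor. Of all named genes, 61.5% were above it on Mu11K and 63.2% on U74A. The list's median percentile was 93.9 on Mu11K and 95.9 on U74A, beside 52.2 and 52.1 for all named genes. Of the 22 genes on both array types, 21 were above the floor in both, where 52.5% of all genes on both array types were. At or above the 90th percentile in both were 12 of the 22, beside 4.88% of all genes on both. The list was drawn up from knowledge of the stage and with earlier results of these data known.

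The surface proteins described next had percentiles from 75.3 to 99.9. Thy1, a glycoprotein of thymocytes and T cells, had 24809 on Mu11K and 18016 on U74A. Cd8b1, the partner chain of Cd8a, was measured on U74A alone, at 21921. Cd24a, a glycoprotein of immature thymocytes, had 5860 and 5582. Those levels placed Thy1 and Cd24a at or above the 97th percentile of both experiments. Cd27, a co-stimulatory receptor of the TNF receptor family, had 3619 on Mu11K and 4480 on U74A. Cd2, an adhesion receptor, had 2444 and 2338. Cd5, which dampens receptor signalling, had 1688 and 2509. The co-stimulatory receptor Cd28 had 1256 and 1302, and the lipid-presenting Cd1d1 had 669 and 1360. The chemokine receptor Ccr9, which holds immature cells near thymic epithelium, had 3475 on U74A, the only array that named it.

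Nuclear proteins and other members were as follows. Satb1, a chromatin organiser of thymocytes, had 10102 on Mu11K and 12489 on U74A, at percentiles 99.5 and 99.3. Tcf12, the E protein HEB, had 2223 on Mu11K and 8007 on U74A. Ets1 differed the other way, with 5163 on Mu11K and 1438 on U74A, and Ets2 had 3561 and 5106. Dntt, the terminal transferase that adds bases at V(D)J joints, had 4275 and 14152 on its Mu11K B probe sets and 6225, 12495 and 19262 on its U74A probe sets. All 5 readings of Dntt were therefore far above the trimmed mean of 500. Bcl2l1, the survival gene of this stage, was near the trimmed mean in both, at 654 and 574. St6gal1, a sialyltransferase, was at the floor on Mu11K and at 470 on U74A, the 1 gene of the list above the floor in U74A and not in Mu11K.

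**Figure D2:**
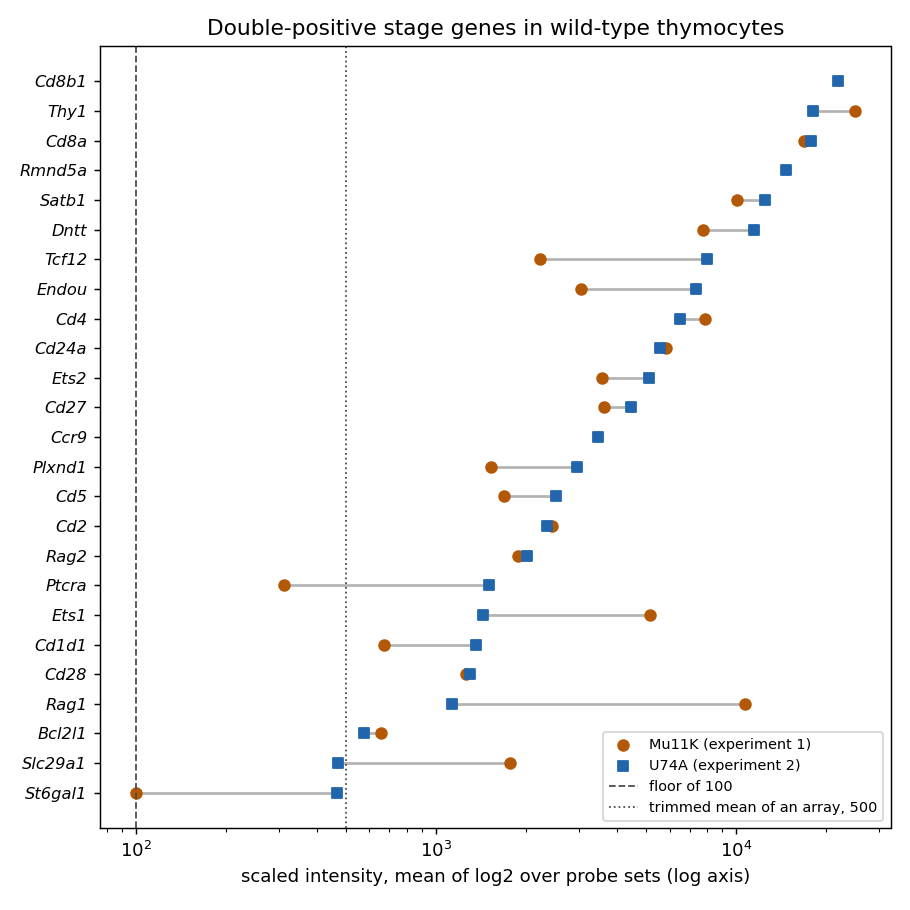
Level of each measured double-positive stage gene on Mu11K (circles) and U74A (squares), as scaled intensity on a log axis, with a grey line joining the values of a gene and no error bars because each experiment has 1 sample. Of the 25 genes, 21 lie above the floor of 100 in both experiments, 3 were measured on U74A alone, and St6gal1 is at the floor on Mu11K.

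Among the signalling chains of the T-cell receptor, Cd3e and Cd3g ranked near Cd4 on both array types, and the others were lower on at least 1 of them. Cd3e had 4633 on Mu11K and 7124 on U74A, and Cd3g had 7582 and 7805. Cd3d had 14134 on Mu11K, but its U74A probe sets gave 5183 and 1.21, so its U74A mean was 720. All 3 encode the CD3 subunits that carry the receptor to the surface. Cd247, the zeta chain, was lower, at 581 and 450. Trbv13-2, a variable segment of the beta locus, had 168 on Mu11K and 2235 on U74A. Of the 7 genes of this list on both array types, 6 were above the floor in both, where 52.5% of all genes on both were. Trgv1, a gamma variable segment, was at 140 on Mu11K and at the floor on U74A. Variable segments resemble one another, and how far the probes separate them was not tested.

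Proximal signalling genes lay almost all above the floor. On Mu11K 17 of 17 measured members were above the floor, and on U74A 21 of 23, beside 61.5% and 63.2% of all named genes. Zap70, the kinase recruited by the zeta chain, had 2589 and 2848. Lcp2, the adaptor SLP-76, had 2222 on Mu11K and 4920 on U74A. Sla, an adaptor that lowers receptor levels in double-positive cells, had 4829 and 7083. These 3 genes were at or above the 89th percentile of both experiments. Cd6 had 2550 and 3151, and Itpkb, an inositol kinase needed for thymocyte selection, had 2270 and 2846. Fyn, a Src family kinase, had 211 on Mu11K and 1258 on U74A. Ptprc, the CD45 phosphatase, had 6720 on Mu11K and 1211 on U74A. Grap2 and Nck1, both adaptors, were the 2 members at the floor of U74A, and Mu11K did not name them.

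The V(D)J recombination genes other than the markers were mixed. H2ax, the histone variant phosphorylated at DNA breaks, had 8555 on Mu11K and 10967 on U74A. Hmgb1, a cofactor of RAG cutting, had 8874 on Mu11K, and Hmgb2, its relative, had 10824 on Mu11K and 874 on U74A. Polm, a polymerase that fills in coding joints, had 606 and 1325. The end-joining genes lay lower or disagreed. Prkdc had 163 and 269, and Atm, the kinase that senses breaks, was at the floor on Mu11K and at 138 on U74A. Xrcc6, the Ku70 subunit that binds broken ends, was at the floor on Mu11K and at 3445 on U74A, and Xrcc5, the Ku80 subunit, was at the floor and at 178.

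Transcription factors of thymocyte development spread over the whole range. Of 28 on both array types, 21 were above the floor in both, where 52.5% of all genes on both array types were. Cbfb, the partner of the Runx factors, had 2531 on Mu11K and 7661 on U74A, and Runx1 itself had 308 and 599. Sox4, an HMG box factor, had 3135 and 3043, and Lef1, a nuclear partner of beta-catenin, had 2196 and 3344. Sox4 and Lef1 were the 2 genes of the Sox and TCF/LEF list that reached the 90th percentile in both experiments. Gata3 had 1155 and 1067, and Gfi1, a repressor, had 1385 and 2013. Id3, an inhibitor of E proteins, had 1651 and 1809, while Id2 had 208 and 210 and Id1 was at the floor in both. Zbtb7b, which directs cells to the CD4 lineage after this stage, was at the floor in both experiments. Hes1, a Notch target, was at the floor on Mu11K and at 246 on U74A.

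Most other members of the HMG box families were at or near the floor. Of 15 Sox and TCF/LEF genes on both array types, 3 were above the floor in both and 7 at the floor in both, namely Sox1, Sox2, Sox5, Sox6, Sox11, Sox17 and Sox18. The third gene above in both was Tcf7l1, at 954 on Mu11K and 128 on U74A. Of all genes on both array types, 52.5% were above the floor in both and 26.6% at it in both. The labels describe wild-type cells as lacking endogenous Sox13. The scaled Sox13 value was 27.4 on Mu11K A, under the floor, and 599.6 on U74A at percentile 75.4. The U74A value therefore went against the label's wording, and which transcripts that probe set binds was not tested.

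Of 17 double-negative stage genes on both array types, 3 were above the floor in both and 7 at the floor in both. Over all genes on both array types these shares were 52.5% and 26.6%. No double-negative stage gene reached the 90th percentile in either experiment. Il2ra and Cd44, the surface proteins that divide the double-negative stages, and Il7r, the interleukin-7 receptor chain, were at the floor in both. Notch1 had 623 and 721, and Notch3 had 1304 on Mu11K and 483 on U74A. Kit, the stem cell factor receptor, had 116 on Mu11K and was at the floor on U74A. For genes of mature single-positive cells, 9 of 16 were above the floor on Mu11K and 10 of 16 on U74A, shares near the 61.5% and 63.2% of all named genes. Ccr7 and S1pr1, the receptors for entering the medulla and leaving the thymus, were at the floor in both with Cd40lg, Il7r and Zbtb7b. Cd52, a surface glycoprotein of lymphocytes, had 2006 on Mu11K and 6453 on U74A and was the 1 member at or above the 90th percentile in both. In sorted bulk RNA, fewer cells of a type and less RNA per cell cannot be told apart.

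Genes of gamma-delta T cells included some that double-positive cells also use. Of 9 on Mu11K, 6 were above the floor (66.7%), near the 61.5% of all named genes. Of 11 on U74A, 4 were (36.4%), where all named genes gave 63.2%. Id3 had the highest percentile of them in both, at 89.7 and 91.0, and Gzma, a granule protease of cytotoxic and natural killer cells, had 1535 and 605. Il17a and Zbtb16 were at the floor in both.

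Cell division genes were above the floor almost without exception. On Mu11K 41 of 42 measured members were above, and on U74A 42 of 45, beside 61.5% and 63.2% of all named genes. The list's medians were at percentiles 86.6 and 83.2. Ccnd3, the D-type cyclin of double-positive expansion, had 9706 on Mu11K and 7860 on U74A. Its relative Ccnd2 was at the floor in both, and Ccnd1 had 261 and 124. The Ccnd1 value on U74A lay within the range that genes of other organs gave. Pcna, the sliding clamp of replication, had 4262 and 4960, and Mcm7, a subunit of the replicative helicase, had 3311 and 3248. Cdk1, the mitotic kinase, had 3923 and 3271, its cyclins Ccna2 and Ccnb2 had 3887 and 2647, and 3159 and 9283, and Top2a, the topoisomerase of dividing cells, had 2954 and 2481. Cdkn1b, a cyclin-dependent kinase inhibitor, had 379 on Mu11K and was at the floor on U74A, and so was Mcm6, at 1063 on Mu11K.

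Markers of other cell types that the sort could hold were counted in the same way. Of 20 B-cell genes on both array types, 8 were above the floor in both, where 52.5% of all genes on both array types were. Cd79b, a chain of the B-cell receptor complex, had 350 on Mu11K and 775 on U74A, where it was the highest of the list. On Mu11K the highest was Cd74, the MHC class II chaperone, at 1808, with 724 on U74A. The class II genes H2-Eb1 and H2-Ab1 had 797 and 373, and 639 and 212. The B-cell genes Cd22, Ebf1, Vpreb3, Pou2af1, Fcer2a, Btk and Cd72 were at the floor in both. Class II genes are also made by dendritic cells and thymic epithelium. The summed level of the B-cell list, in which each gene at the floor adds 100, was 6356 on Mu11K and 4147 on U74A, and such sums over different probes are no measure of a share of cells.

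For myeloid cells, 10 of 24 genes (41.7%) were above the floor on Mu11K and 10 of 27 (37.0%) on U74A. Beside these and the lists that follow stand 61.5% and 63.2% of all named genes. The summed level of the myeloid list was 5731 and 3435. Of the 23 on both array types, 5 were above the floor in both and 9 at it in both, against 52.5% and 26.6% of all genes on both. The 5 were Cd14 (642 on Mu11K and 229 on U74A), Camp (236 and 180), Ctss (162 and 241), C1qb (157 and 103) and Cd68 (148 and 119). Adgre1, Mpo, S100a9, C1qa and Mrc1 were among the 9 genes at the floor in both. Lyz2, the lysozyme of macrophages, had 2024 on Mu11K and was at the floor on U74A. Natural killer genes were above the floor in 3 of 8 cases on Mu11K and in 1 of 11 on U74A, where that gene was Gzma. Erythroid genes were above in 7 of 11 cases (63.6%) on Mu11K, near the 61.5% of all named genes, and in 4 of 13 (30.8%) on U74A, where all named genes gave 63.2%, with the globin gene Hba-a1 at 200 and 242. Stromal and epithelial genes were above in 5 of 24 and 7 of 26 cases. At the floor in both were 16 of the 24 on both array types, where 26.6% of all genes on both were. The part of such cells in the other results was not tested.

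Genes of other organs show how often a probe set exceeds the floor without an evident source in the sort. On Mu11K 34 of 76 such genes (44.7%) were above the floor, and on U74A 21 of 85 (24.7%), beside 61.5% and 63.2% of all named genes. Of the 75 on both, 11 were above in both and 34 at the floor in both, against 52.5% and 26.6% of all genes on both. A scaled intensity over 500 was reached by 4 of the 76 on Mu11K and by 0 of the 85 on U74A, against 30.1% and 28.5% of all named genes. The highest were Actc1, cardiac actin, at 2532 on Mu11K and at the floor on U74A, and Mbp, the myelin basic protein, at 1252 on Mu11K and 426 on U74A. Actins are closely related in sequence, and Mbp transcripts are also known from the immune system. A level under about 260.1 on Mu11K or 209.2 on U74A, the 90th percentiles of the other-organ list, is therefore a level that genes of other organs also gave.

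**Figure D3:**
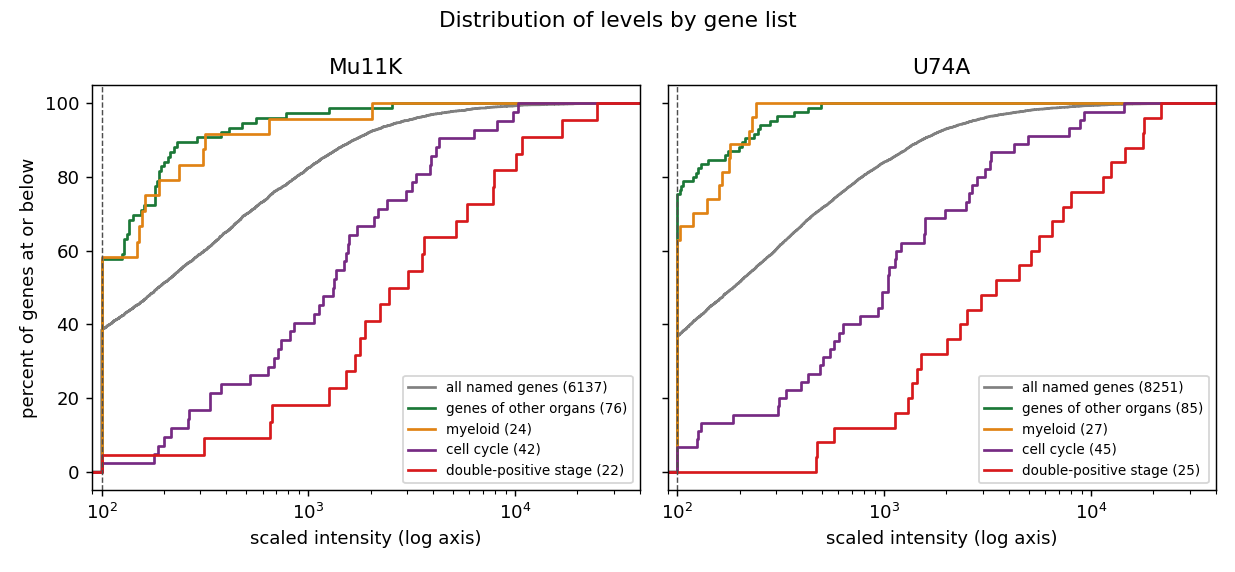
Cumulative distribution of gene levels for 5 sets of genes in each experiment, with scaled intensity on a log axis and the percent of genes at or below it on the vertical axis, and the dashed line at the floor of 100. The curve of the double-positive stage genes lies to the right of that of all named genes, and the curves of myeloid genes and of genes of other organs lie to the left.

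The head of each array was taken by genes of protein synthesis and by lymphocyte genes. Among probe sets with 1 symbol, the highest was Rpl41 on Mu11K A at 20912 and Eef1a1, the elongation factor, on Mu11K B at 26860. On U74A the first 3 were Rpl41 at 46387, Trbv1, a beta variable segment, at 41417 and Eef1a1 at 39335. Ly6e, a surface protein of immature thymocytes, was second on Mu11K A at 19179 and had 29109 on its brightest U74A probe set. Trav9d-3, an alpha variable segment, reached 25478 on U74A.

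Ranked by the lower of their percentiles in the experiments, the 15 leading genes held 6 ribosomal protein genes and Gm15772. Rpl41 had 20912 on Mu11K and 46387 on U74A, Tpt1 had 22814 and 29599, and Rplp0 had 17815 and 29817. Thy1, Cd8a and Satb1 were among the 15, the lymphocyte genes beside which the ubiquitous ones stood. So were 4 genes of the actin system. Cfl1, cofilin, had 13239 and 12995. Rac2, a small GTPase of blood cells, had 19273 and 10536. Arhgdib had 9070 and 15828, and Actg1, a cytoplasmic actin, had 11019 and 11552.

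Whole groups of housekeeping genes were high with different agreement. The cytoskeleton list had medians at percentiles 95.8 on Mu11K and 95.5 on U74A. Respiratory chain genes had 94.4 and 92.5, with Cox6a1 at 7245 and 9214 and Atp5a1 at 6046 and 6060. Proteasome genes had 87.5 and 89.2, and 27 of 29 and 30 of 32 were above the floor, beside 61.5% and 63.2% of all named genes. The list of ribosomal protein and translation factor genes had medians at 98.7 on Mu11K and 84.0 on U74A, the widest gap among these groups. Each median is over the genes that the array type measured, here 49 and 39 with 33 on both, so membership differs too. On Mu11K 45 of 49 were above the floor and on U74A 29 of 39. Above in both were 26 of the 33 on both array types, where 52.5% of all genes on both were. Ribosomal protein genes have many processed copies in the genome, and how far the probes separate them was not tested. Chaperone genes differed in the same direction, at 87.5 and 73.3, with Hspa8, a constitutive chaperone, at 7569 on Mu11K and 1839 on U74A. The stress-induced Hspa1a and Hspb1 were at the floor in both experiments. Splicing genes, at 89.1 and 81.9, and chromatin genes, at 83.4 and 82.5, were above the floor in all 31 and all 33 members measured on U74A.

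**Figure D4:**
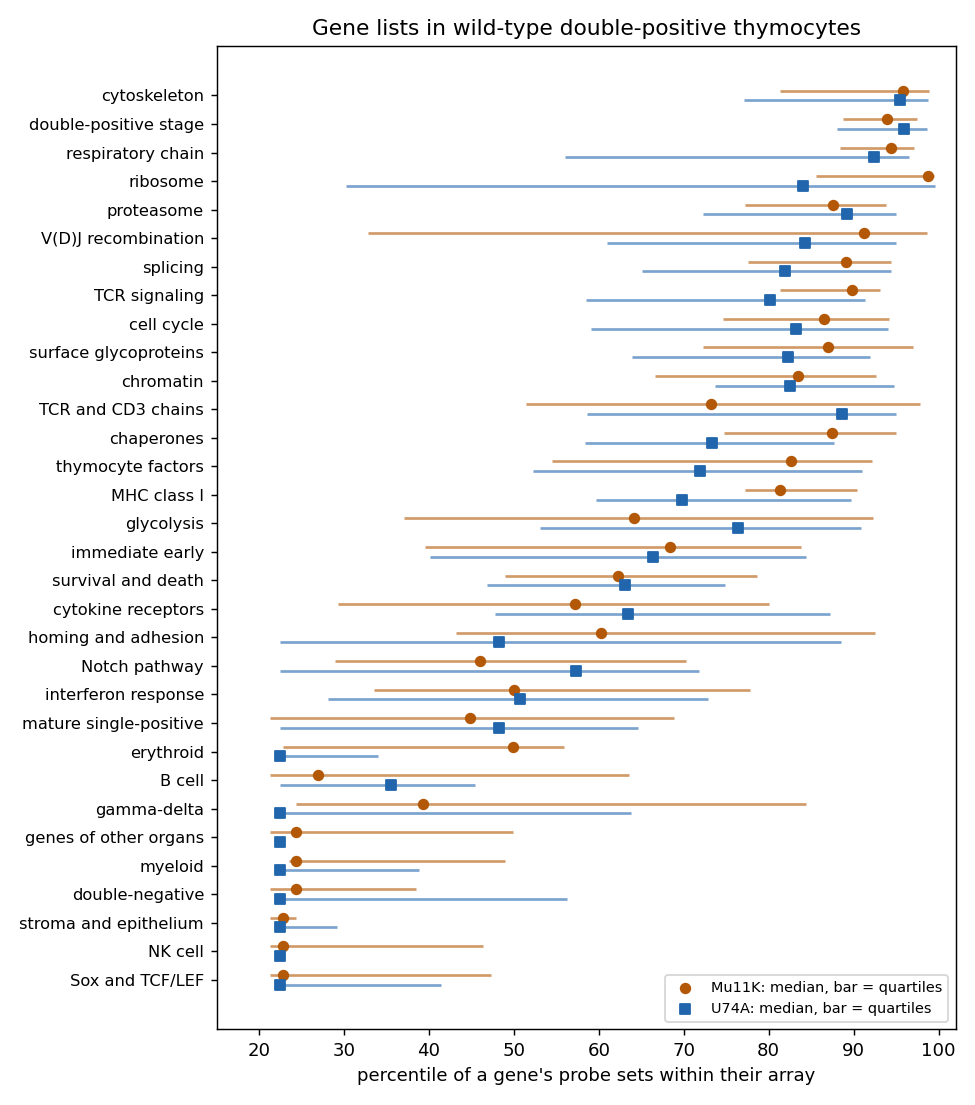
Median percentile (symbols) and quartiles (bars) of the genes of each list within their arrays, for Mu11K in orange circles and U74A in blue squares. The medians of cytoskeleton, double-positive stage and respiratory chain genes lie above percentile 90 on both, with lower quartiles under 90. The lists of stroma, natural killer and myeloid cells, of other organs and of double-negative cells have medians at the floor.

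Ranks on the array types followed each other over all genes and less so within the upper range. Over the 5877 genes on both, Spearman's correlation between the percentiles was 0.691 and Pearson's r between log2 levels was 0.741. These correlations are across genes, which are not independent replicates, and the points share the scaling, the floor and in part the target sequence. The median difference in size between a gene's percentiles was 8.25 points, the median log2 difference in size was 0.49, and 69.4% of genes were within 2-fold. Over the 3088 genes above the floor in both experiments Spearman's correlation was 0.522, the median log2 difference was 0.81 and 59.3% were within 2-fold. The larger value over all genes thus included the many genes tied at the floor. Over the 3456 genes with 1 probe set on each array type Spearman's correlation was 0.721. Mice, sort, array design and processing software all could differ between the experiments and cannot be told apart.

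Floor calls and the top of the ranking were also compared. Of 5877 genes, 3088 were above the floor in both experiments, 544 on Mu11K alone, 681 on U74A alone and 1564 in neither. Of the genes above the floor on Mu11K, 85.0% were also above it on U74A, where 63.2% of all genes named on U74A were. Of those above on U74A, 81.9% were also above on Mu11K, where 61.5% of named genes were. The top 10% of each experiment held 588 genes, and 316 of them, 53.7%, were in both. When genes were divided into 10 groups by U74A percentile, the median Mu11K percentile was 78.3 in the second highest group, 68.8 in the next and 49.3 in the fifth from the bottom. In the lowest 4 groups, which are mostly ties at the U74A floor with no order among them, it lay between 21.3 and 24.3.

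Probe sets of a gene on the same array gave the only measure of technical spread. The log2 levels of a pair differed by a median of 0.74 over 578 genes with 2 probe sets on Mu11K A, by 0.36 over 215 genes on Mu11K B and by 0.91 over 1675 genes on U74A. In 39.0% of the U74A pairs 1 probe set was above the floor and the other at it, against 26.5% on Mu11K A. For 1087 genes with 1 Mu11K probe set and 2 on U74A, the Mu11K level differed from either U74A probe set by a median of 0.62, and the U74A pair differed by 0.91. By these medians, probe sets for the same gene in the same U74A sample were further apart than the experiments were.

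The U74A probe sets with numbers from 160060 to 162504 were looked at apart from the rest, numbered from 92180 to 104767, and this division was made after the values were seen. Of the 2445 probe sets in the upper range, 47.2% were above the floor, with a median scaled intensity of 82.1, against 57.0% and 155.5 for the other 9977. For 849 genes with 1 probe set inside and 1 outside the range, the outside one was brighter in 72.2%. For 648 of these with 1 probe set on Mu11K, Spearman's correlation with Mu11K was 0.309 for the inside probe set and 0.690 for the outside one. Rag1, with 97.6 inside and 12724 outside, is such a gene. So are Cd3d with 1.21 and 5183, Mki67, the proliferation antigen, with 41.2 and 2390, Mcm5, a helicase subunit, with 52.1 and 3688, and Rrm1, the large ribonucleotide reductase subunit, with 4.63 and 3304. On Mu11K the levels were 8130 for Mki67, 1546 for Mcm5 and 1320 for Rrm1. The range was not uniformly dim, since Ly6d, a surface protein of lymphocytes, had 12932 inside it.

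Few genes ranked high in 1 experiment while the other had them at the floor. Of all 5877 genes on both array types, 11.6% were at the floor on Mu11K alone, 9.26% on U74A alone and 26.6% in both. Of 542 genes at or above the 90th percentile on U74A, 22 (4.06%) were at the Mu11K floor. The 10 highest were Rps7, Gsk3a, Rsrp1, Pcbp2, Tmsb4x, Tspo, Psmc6, Arpc2, Sdhd and Xrcc6, with U74A levels from 3445 for Xrcc6 to 22963 for Rps7. Tmsb4x, the actin-binding thymosin beta 4, had 8678 and Gsk3a, a kinase, had 14101. Of these 22 genes, 21 had a single probe set on Mu11K and 21 had a single one on U74A, against 80.5% and 69.0% of all genes on both array types. The definition itself favours genes with 1 probe set. A gene was at the floor only if all its probe sets were, and high only if their mean percentile was at least 90. The shares of single probe sets are therefore no separate finding about the 22 genes. Of 542 genes at or above the 90th percentile on Mu11K, 14 (2.58%) were at the U74A floor. The 10 highest were Rps15, Rpl39, Fau, Cox8a, Ddx27, Atp5j2, Selenow, Cox5a, Ndufs4 and Actc1, with Mu11K levels from 2532 for Actc1 to 12606 for Rps15. Respiratory chain and ribosome genes made up 7 of these 10. The lists of such genes were also high on Mu11K as a whole. There 22 of 31 and 35 of 49 members were at or above the 90th percentile, where 579 of 6137 named genes were. Whether 7 of 10 exceeds their part among the genes high on Mu11K was not tested. Among the 14, 6 (42.9%) had a Mu11K probe set whose name carries a suffix for a family, rules-dropped, incomplete or group design, against 13.8% of all genes on both array types. The share among the 22 was 9.09% on Mu11K. On U74A such a suffix was carried by 14.3% of the 14 and 9.09% of the 22, against 23.2% of all genes.

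Promoter CpG count differed between genes above and at the floor, and the few double-positive genes with a window had low counts. RefSeq gave 1 window of 300 bases, from 250 before to 50 after the start, for 3746 of the 5877 genes. The median CpG count was 22 (quartiles 16 and 30) for 1985 genes above the floor in both experiments and 10 (quartiles 3 and 22) for 987 at the floor in both. Under 5 CpG were found in 5.19% of the former and 31.5% of the latter. Among 22862 genes of the table, the median was 7. Of the 22 double-positive genes on both array types 9 had a window, with a median of 3 CpG, and 6 of the 9 had under 5. The median was 24 for 20 ribosomal protein and translation factor genes, 22.5 for 28 cell cycle genes and 3.5 for 50 genes of other organs. The printed stretches are chosen examples of low and high counts. Those of Cd8a, Rag1, Rag2 and Ptcra held 0 to 3 CpG and that of Alb held 2, beside 12 for Rpl41 and 33 for Tpt1. These markers, Rpl41 and Tpt1 were all above the floor in both experiments. Their sequences therefore do not show the difference between genes above and at the floor. Across the 3746 genes Spearman's correlation between CpG count and percentile was 0.29 on Mu11K and 0.34 on U74A, a description across genes that share base composition.

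Short motifs were searched on both strands of the same windows. TATAAA was in 14.8% of all windows, in 7.41% of those of genes above the floor in both, in 18.4% of those at the floor in both, in 44.0% of those of other-organ genes and in 0 of the 9 double-positive windows. CCGGAAG, the core bound by ETS factors, was in 9.12% of all windows, 22.9% of those above the floor in both, 5.27% of those at the floor in both, 2% of those of other-organ genes and 0 of the 9 double-positive windows. CANNTG, the E-box, was in 72.4% of all windows, in 59.8% of those above in both, in 71.0% of those at the floor in both, in 82% of those of other-organ genes and in 7 of the 9 double-positive windows. A match is a stretch of letters, and no binding was measured.

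**Figure D5:**
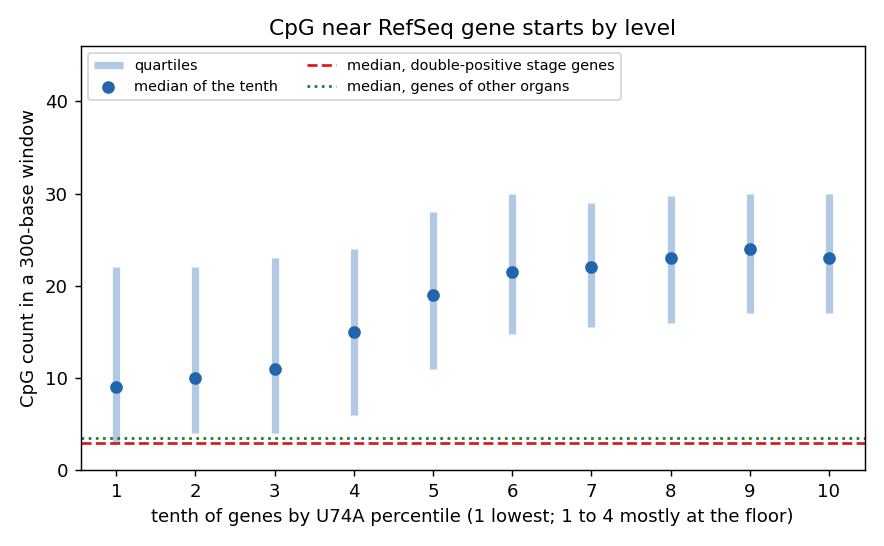
CpG count in the 300-base window around the RefSeq start, as median (points) and quartiles (bars), for genes on both array types divided into 10 groups by U74A percentile. The median is 9 in the lowest group and 23 in the highest, and the dashed and dotted lines give the medians of 3 for double-positive stage genes and 3.5 for genes of other organs.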

How the data were processed

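The 3 wild-type arrays were analysed: Mu11K A and B, counted as 1 sample, and U74A. The values deposited by the authors are linear intensities, 1 per probe set; the series text names Affymetrix Microarray Analysis Software and the submitters' processing notes name MAS5. The software version and scaling target behind each array are not stated in the labels. The authors' control probe sets (55, 55 and 66) and 21 Mu11K A probe sets with no wild-type value were left out. Scaling set every array's 2% trimmed mean to 500, after which values were floored at 100 and put on the log2 scale in Python 3.11.15 with numpy 2.4.6, pandas 2.3.3 and scipy 1.17.1. The 3 columns of transgenic samples were not used. Gene names came from GEO's platform annotation, with list symbols updated through RefSeq (GRCm38.p6). Probe sets with 1 symbol numbered 5530, 2001 and 10833 on Mu11K A, Mu11K B and U74A, those with several 197, 27 and 396, and those with none 781, 4512 and 1193.

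With 1 pooled sample per experiment no test was made and no p-value is given. The number of arrays limits the precision. The rank agreement step was first run on simulated data with no floor and 1 probe set per gene. That setting is simpler than the arrays, with their ties at the floor and means over probe sets. The markers, the 32 gene lists and the other named genes (the 10 highest probe sets of an array, the 15 genes highest in both, and the genes with the largest differences in rank) followed fixed rules, and members and lists were chosen with earlier results of these data known. The alternatives were other floors, scaling to the median, the brightest probe set per gene, subsets of probe sets and genes, and leaving out a Mu11K array.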

Additional observations from a re-analysis of the deposited data

How the results depend on the processing

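Each experiment had 1 wild-type sample, so no value has an error between samples. Of 127 values computed under 14 alternatives, 86 stayed within 1.5 times the count given or, for Spearman's correlation over genes on both array types, within its 95% interval of 0.677 to 0.704. That interval covers the number of genes only. Some of the 86 could not move. Taking the brightest probe set cannot change a count of genes above the floor, since any probe set above it already counted the gene. The count of other-organ genes above on U74A uses no Mu11K value, so leaving out a Mu11K array cannot change it. Scaling each array to a median of 100 and a floor at each median gave the same counts, such as 2785 genes above in both. So 86 of 127 overstates how far the results were tested. No paired analysis was possible because each experiment had 1 wild-type sample and no test was made.

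Leaving out every probe set with a suffixed name, many of which are the only ones for a gene on Mu11K, left fewer genes on both array types: 683 above the floor in both, 146 on Mu11K only, 274 on U74A only, 496 in neither and 83 in the top 10% of both. It also left 3 double-positive genes above in both, 6 other-organ genes above on Mu11K, and 2 genes high on Mu11K and at the U74A floor. Spearman's correlation was 0.540. The suffixes left out here included _s, which the only Mu11K probe set of each of the 5 markers carries. No marker was then left on Mu11K, so the count of 0 of 5 at or above the 90th percentile in both was fixed and says nothing about their rank. With 1 Mu11K array left out at a time, the ranges were 740 to 2529 genes above in both, 246 to 309 on Mu11K only, 200 to 560 on U74A only, 477 to 1203 in neither, 95 to 242 in the top 10% of both, and 9 to 14 double-positive genes above in both. In the same alternatives 11 to 25 other-organ genes were above on Mu11K, 6 to 12 genes were high on Mu11K and 6 to 20 high on U74A while at the other floor, and Spearman's correlation was 0.664 to 0.724. Fewer genes were measured in each.

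A floor of 50 gave 1000 genes in neither, 4 high on Mu11K and at the U74A floor, and 40 other-organ genes above on U74A. A floor of 200 gave 27 high on Mu11K, 16 other-organ genes above on Mu11K and 11 on U74A, and a Spearman's correlation of 0.668. Taking the brightest probe set of each gene gave 22 genes high on Mu11K and 41 high on U74A while at the other floor, and a Spearman's correlation of 0.711. It also put 4 of the 5 markers at or above the 90th percentile in both, where gene means put 3. The agreement was 0.741 as Pearson's r of log2 levels and, as Spearman's correlation, 0.522 over genes above the floor in both and 0.721 over genes with 1 probe set in each.

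Alternatives chosen after seeing the data were a Mu11K floor at the size that 95% of negative values stayed under, and leaving out U74A probe sets numbered 160060 to 162504. The former gave 1816 Mu11K B probe sets above the floor, 222 genes on Mu11K only, 1121 on U74A only, 12 other-organ genes above on Mu11K and a Spearman's correlation of 0.669. The latter gave a Spearman's correlation of 0.714 and 4 of the 5 markers at or above the 90th percentile in both.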

Other observations

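Homing and adhesion genes of the wild-type cells included several with levels far above the trimmed mean of 500. Selplg, the selectin ligand PSGL-1, had 9050 on Mu11K and 7063 on U74A, and Cxcr4, the receptor for CXCL12, had 4403 and 1447. Itgb2, the integrin chain of LFA-1, had 3840 and 1521, its partner Itgal had 942 and 1754, and their ligand Icam2 had 3794 and 1738. Of 17 members on Mu11K 14 were above the floor (82.4%, with 61.5% of all named genes), and of 19 on U74A 12 (63.2%, the share of all named genes). Among MHC class I genes 13 of 13 and 12 of 13 were above the floor. B2m, the light chain, had 4659 and 3469, the immunoproteasome subunit Psmb8 had 4957 and 8315, and the heavy chain H2-K1 had 802 and 431.

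Survival and death genes lay in the middle of the range, with medians at percentiles 62.3 on Mu11K and 63.1 on U74A. Mcl1, an anti-apoptotic protein, had 3126 and 2071, while its relative Bcl2 had 169 and 343. Casp1, Fasl and Pdcd1 were at the floor in both experiments. Of cytokine receptor and signalling genes, 18 of the 26 on both array types were above the floor in both, where 52.5% of all genes on both were. Socs1, a cytokine signal inhibitor, had 2172 and 4120, Ifngr1, the interferon-gamma receptor chain, had 3500 and 2179, and Jak1 had 1633 and 2100. Il7r, Il2ra, Il6ra, Socs2 and Tgfbr2 were at the floor in both.

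Interferon response genes were split. Ifit1, Ifit3, Mx1 and Iigp1 were at the floor in both experiments, while Ifi27 had 4115 on Mu11K and 2575 on U74A and Igtp, a GTPase, had 1352 and 1295. Immediate early genes were also split. Jund had 6752 and 9947, Btg2, an antiproliferative gene, had 2981 and 12141, and Nfkbia, an NF-kappaB inhibitor, had 5307 and 2196. Fos was barely above the floor, at 106 and 104, and Jun, Ier3 and Atf3 were at the floor in both. In glycolysis, Hk1 had 8607 and 7650 and Ldha had 4886 and 8796. Hk2, the relative of Hk1, had 107 on Mu11K and was at the floor on U74A. Slc2a1, a glucose transporter, had 177 on Mu11K and was at the floor on U74A. Pgk1, a single enzyme of the same pathway, was at the floor on Mu11K and at 2873 on U74A.

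The medians of the 32 lists had the same order in both experiments to a Spearman's correlation of 0.929. Lists share genes, and the value is a description.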
